A study of Arabidopsis thaliana with 4 samples.

Results

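The 42 genes described here form the phosphate starvation response and the phosphate transport system of Arabidopsis thaliana, the thale cress. They were taken by locus identifier from a list of SPX proteins, target-mimic RNAs, PHR transcription factors, transporters, phosphatases and lipid-remodelling enzymes. Of the 42 genes, 39 had values among the 23174 genes measured, and PHT1;6, PHT1;7 and NPC5 were not analysed here. The assay was RNA sequencing, stranded and selected for polyA tails, of whole seedlings 14 days old. Plants of both genotypes grew on agar plates of MS medium, a standard mineral medium, under 16 h of light and 8 h of dark at 22 °C, and the labels name no phosphate treatment. The groups were wild type (2 libraries) and atino80-5 (2 libraries), a mutant of the chromatin remodelling ATPase INO80. The labels give neither the kind of lesion in atino80-5 nor the number of plants in a library.

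Plants take up phosphorus as inorganic phosphate. When phosphate is scarce, the transcription factor PHR1 and its relative PHL1 bind a short DNA element, P1BS, and switch on genes for phosphate uptake, recycling and the replacement of phospholipids. When phosphate is ample, inositol pyrophosphates let SPX proteins hold PHR1 back. A second arm runs through the microRNA miR399, which guides the cleavage of PHO2 messenger RNA, while the RNAs IPS1 and AT4 bind miR399 without being cut.

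In atino80-5 seedlings, 7 of the 32 members with enough RNA to test rose and none fell. These were the target-mimic RNAs IPS1 and AT4, the phosphatase genes PEPC1, PS2 and PAP17, the lipid-degradation gene SRG3 and the transporter gene PHT1;4. The rises ran from 1.82-fold for PAP17 to 9.04-fold for IPS1. The other 25 tested members did not pass, among them PHR1, PHL1 and PHO2. Across all 17642 genes tested, 2.99% were called higher and 2.42% lower (5.41% in all), against 21.9% of the tested members called higher. The members were chosen with earlier results of these data known, and the shares do not allow for that. These shares depend on the libraries: without atino80-5 replicate 2, 22.1% of all genes and 28.1% of the members were called higher, and 17.2% and 12.5% lower. Without atino80-5 replicate 1, 5.19% of all genes and 25% of the members were called higher, and 4.17% and 6.25% lower. Without wild type replicate 1 or replicate 2, the log2 difference of PAP17, the smallest of the 7 rises, was 0.71 and 0.88. PAP17 and PHT1;4 did not pass in either of these settings, and PS2 did not pass without wild type replicate 1. SPX3 was also tested in both of these settings, where it reached the minimum only through its atino80-5 values. Levels are given as FPKM, which here scales reads to gene length and to a size factor for each library, not to its total reads. A gene was tested where its mean over the 4 libraries was at least 1 FPKM, and "rose" means a limma adjusted p under 0.05 over all tested genes. PEPC1 and PLDZ2 reached that minimum only through their atino80-5 values. Among the 30 members whose wild-type mean alone was at least 1 FPKM, 6 rose (20.0%), against 2.59% of the 17385 such genes, of which 2.46% were called lower. The median log2 difference of the 32 tested members was 0.21, and that of these 30 members 0.16, against 0.03 for all tested genes.

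The sequences behind the miR399 arm are shown first, because its mimics IPS1 and AT4 had the largest log2 differences of the tested members on the log2(FPKM + 1) scale. They were read from the RefSeq TAIR10.1 genome. In the mature miR399 forms the capitals mark the seed, bases 2 to 8, which all 6 forms share, and miR399c-3p has the sequence of miR399b.
miR399a: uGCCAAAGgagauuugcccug
miR399b: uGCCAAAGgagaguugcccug
miR399d: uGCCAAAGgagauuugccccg
miR399e: uGCCAAAGgagauuugccucg
miR399f: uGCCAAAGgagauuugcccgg

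The sites of IPS1, AT4 and PHO2 that face miR399b are set out below, with capitals for bases that form Watson-Crick pairs with it. IPS1 (AT3G09922) has its site at chr3:3051224-3051247 on the plus strand and AT4 (AT5G03545) at chr5:895149-895172 on the plus strand. The sites fall at bases 236 to 259 of the RefSeq IPS1 transcript and at bases 568 to 591 of the AT4 transcript. The PHO2 (AT2G33770) site shown, at chr2:14281884-14281904 on the minus strand, lies in the 5′ untranslated region, where 5 such sites were found.
IPS1 site: uuGGGCAACUucuaUCCUUUGGCA
AT4 site: uuGGGCAACUucgaUCCUUUGGCA
PHO2 site: uuGGGCAAaUCUCCUUUGGCA

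IPS1 and AT4 each formed 18 Watson-Crick pairs and 2 G:U pairs with miR399b and held 3 extra bases opposite bases 10 and 11 of the microRNA, the place where a target is cut. The PHO2 site formed 18 Watson-Crick pairs and 1 G:U pair with 2 mismatches, and held no extra bases there.

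Both target mimics rose. IPS1 stood at 3.35 and 2.85 FPKM in wild type, while atino80-5 reached 32.2 and 23.8 FPKM. Both mutant libraries were far above both wild-type libraries. The rise was 9.04-fold in mean FPKM (log2 difference 2.81, SE 0.19, limma adjusted p = 0.00302) and rested on 27, 31, 204 and 184 reads. Folds compare mean FPKM directly, while log2 differences are on the log2(FPKM + 1) scale of the test, which understates the change of low genes. AT4, a second mimic of the same microRNA, stood at 38.4 and 37.9 FPKM in wild type and at 293.6 and 155.5 FPKM in atino80-5. The mutant libraries did not reach the same level, but the lower one was still above both wild-type libraries. AT4 rose 5.88-fold (log2 difference 2.45, SE 0.31, limma adjusted p = 0.0111), from 397 and 529 to 2384 and 1540 reads. Among the 528 genes called higher, ranked by log2 difference, IPS1 was number 11 and AT4 number 27.

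PHO2 encodes an E2 ubiquitin-conjugating enzyme that marks phosphate transporters and the exporter PHO1 for breakdown. Its RNA stood at 17.6 and 19.6 FPKM in wild type and at 17.3 and 18.0 FPKM in atino80-5, so the genotypes overlapped. The difference did not pass (log2 difference -0.07, 95% interval -0.44 to 0.30, limma adjusted p = 0.781). The interval leaves room for a modest change in either direction.

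**Figure D1:**
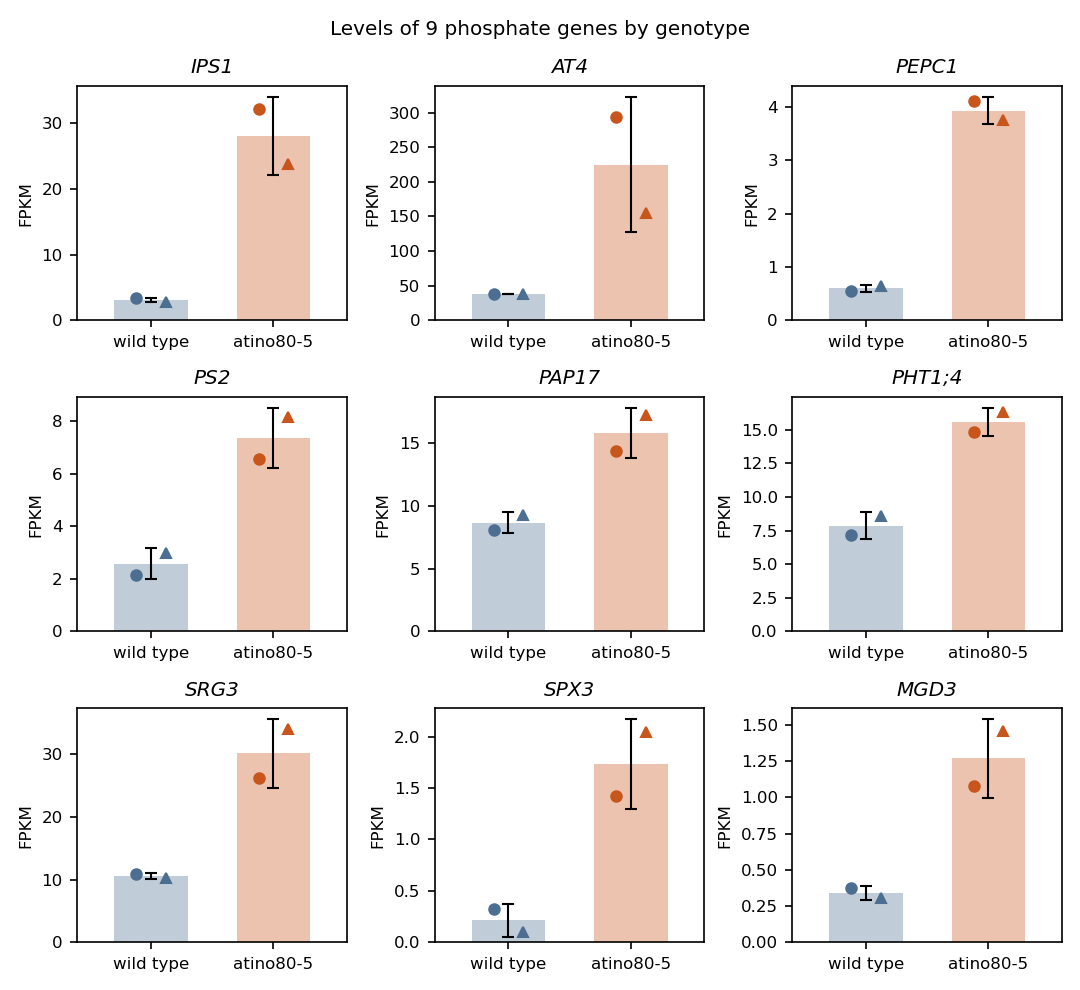
Level in FPKM of the 7 members that rose and of SPX3 and MGD3, which were below the minimum for testing. Bars are group means starting at 0, error bars are the SD of 2 libraries, circles are replicate 1 and triangles replicate 2. In all 9 panels both atino80-5 libraries lie above both wild-type libraries, and the atino80-5 libraries of AT4 stand farthest apart, at 293.6 and 155.5 FPKM.

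The SPX genes, whose proteins sense phosphate status and restrain PHR1, had 3 tested members, none of which passed. SPX1 (AT5G20150), a gene induced by phosphate shortage, stood at 24.2 and 21.0 FPKM in wild type and at 30.6 and 34.4 FPKM in atino80-5. The mutant libraries were the higher pair, but the difference did not pass (log2 difference 0.51, SE 0.17, limma adjusted p = 0.126). SPX3 (AT2G45130), another member induced by shortage, had too little RNA for the test. Wild type gave 7 and 3 reads and the mutant 24 and 42, which was 0.326 and 0.104 against 1.42 and 2.04 FPKM. The ratio of scaled reads was 8.89 with an exact (Clopper-Pearson) 95% interval of 4.54 to 19.4 that covers counting error only. With no minimum level, where 1.92% of 23174 genes were called higher and 1.95% lower (3.87% in all), SPX3 rose (log2 difference 1.17, SE 0.16, limma adjusted p = 0.0284). SPX2 (AT2G26660) had values of 7.16 and 6.57 FPKM against 5.04 and 6.19 FPKM, and SPX4 (AT5G15330), which restrains PHR proteins in the cytosol, had 4.93 and 4.23 FPKM against 3.48 and 5.15 FPKM. The log2 differences were -0.25 for SPX2 and -0.09 for SPX4 (limma adjusted p = 0.334 and 0.796), and the SPX4 libraries overlapped between genotypes.

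Neither RNA of the PHR transcription factors passed. PHR1 (AT4G28610) stood at 16.1 and 16.2 FPKM in wild type and at 13.8 and 16.1 FPKM in atino80-5 (log2 difference -0.11, 95% interval -0.48 to 0.27, limma adjusted p = 0.674). PHL1 (AT5G29000) stood at 6.96 and 7.63 FPKM in wild type and at 6.83 and 8.83 FPKM in atino80-5 (log2 difference 0.08, 95% interval -0.33 to 0.49, limma adjusted p = 0.773). The data do not bear on the amount or activity of the PHR1 protein.

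P1BS, the element that PHR1 binds, reads GNATATNC and is the same on both strands. It was searched in the 1000 bases before the RefSeq start of each gene, and a match describes the letters there, not binding. At least 1 match was found for 22 of the 39 members (56.4%), and for 20.3% of all tested genes. Of the 7 members that rose, 5 held a match (71.4%), and so did 12 of the 25 tested members that did not pass (48.0%). PHT1;4 and PAP17 held none in this window. Within 300 bases of the start, the shares were 25.6% of members with values and 6.51% of all tested genes. The list was drawn up from known phosphate genes, so its share of P1BS is a property of the list and not of atino80-5.

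The upstream stretches of 5 members with higher RNA in both atino80-5 libraries are printed to show where the element sits, 5′ to 3′ on the gene's strand with P1BS in capitals. The first is a stretch of 100 bases that holds both matches of IPS1, at 582 and 548 bases before its start (chr3:3050379-3050478, plus strand). The others are the 250 bases before the start of SRG3 (AT3G02040, chr3:350011-350260, minus strand), PS2 (AT1G73010, chr1:27466349-27466598, minus strand), AT4 (chr5:894332-894581, plus strand) and SPX3 (chr2:18606160-18606409, plus strand). Coordinates are those of RefSeq TAIR10.1.
IPS1 upstream: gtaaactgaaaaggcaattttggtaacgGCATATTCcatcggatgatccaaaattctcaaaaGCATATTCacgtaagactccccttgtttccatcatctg
SRG3 upstream: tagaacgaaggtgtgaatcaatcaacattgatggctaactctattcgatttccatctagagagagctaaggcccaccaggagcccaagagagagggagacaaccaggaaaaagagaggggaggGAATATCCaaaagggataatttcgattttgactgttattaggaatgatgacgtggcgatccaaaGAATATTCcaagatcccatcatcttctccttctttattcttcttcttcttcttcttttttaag
PS2 upstream: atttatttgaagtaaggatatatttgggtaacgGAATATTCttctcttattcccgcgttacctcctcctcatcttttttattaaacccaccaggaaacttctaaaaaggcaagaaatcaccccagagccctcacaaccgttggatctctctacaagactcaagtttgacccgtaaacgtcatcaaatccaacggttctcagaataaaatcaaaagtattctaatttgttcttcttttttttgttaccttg
AT4 upstream: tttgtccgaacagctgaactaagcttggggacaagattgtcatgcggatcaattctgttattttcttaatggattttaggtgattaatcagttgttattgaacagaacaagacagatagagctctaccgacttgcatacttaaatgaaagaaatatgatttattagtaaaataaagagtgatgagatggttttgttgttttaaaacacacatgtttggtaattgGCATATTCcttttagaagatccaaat
SPX3 upstream: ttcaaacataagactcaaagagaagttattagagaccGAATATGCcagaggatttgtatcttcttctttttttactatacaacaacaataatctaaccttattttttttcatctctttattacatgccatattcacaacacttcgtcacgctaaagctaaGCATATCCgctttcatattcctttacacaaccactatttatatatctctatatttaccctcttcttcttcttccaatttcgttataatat

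SRG3 and SPX3 each held 2 matches in the printed stretch, and PS2 and AT4 held 1 each. The choice of stretches does not tie the element to the rise. Over the same 250 bases PPCK1, lower in both atino80-5 libraries, also held 1 match, as did NPC4 and MGD2, whose libraries overlapped. IPS1, PEPC1, PHT1;4 and PAP17 rose and held none there. The RefSeq gene start of AT4 may not be the one behind its deposited values, which were scaled to a gene length of 695 bases, shorter than the RefSeq gene.

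**Figure D2:**
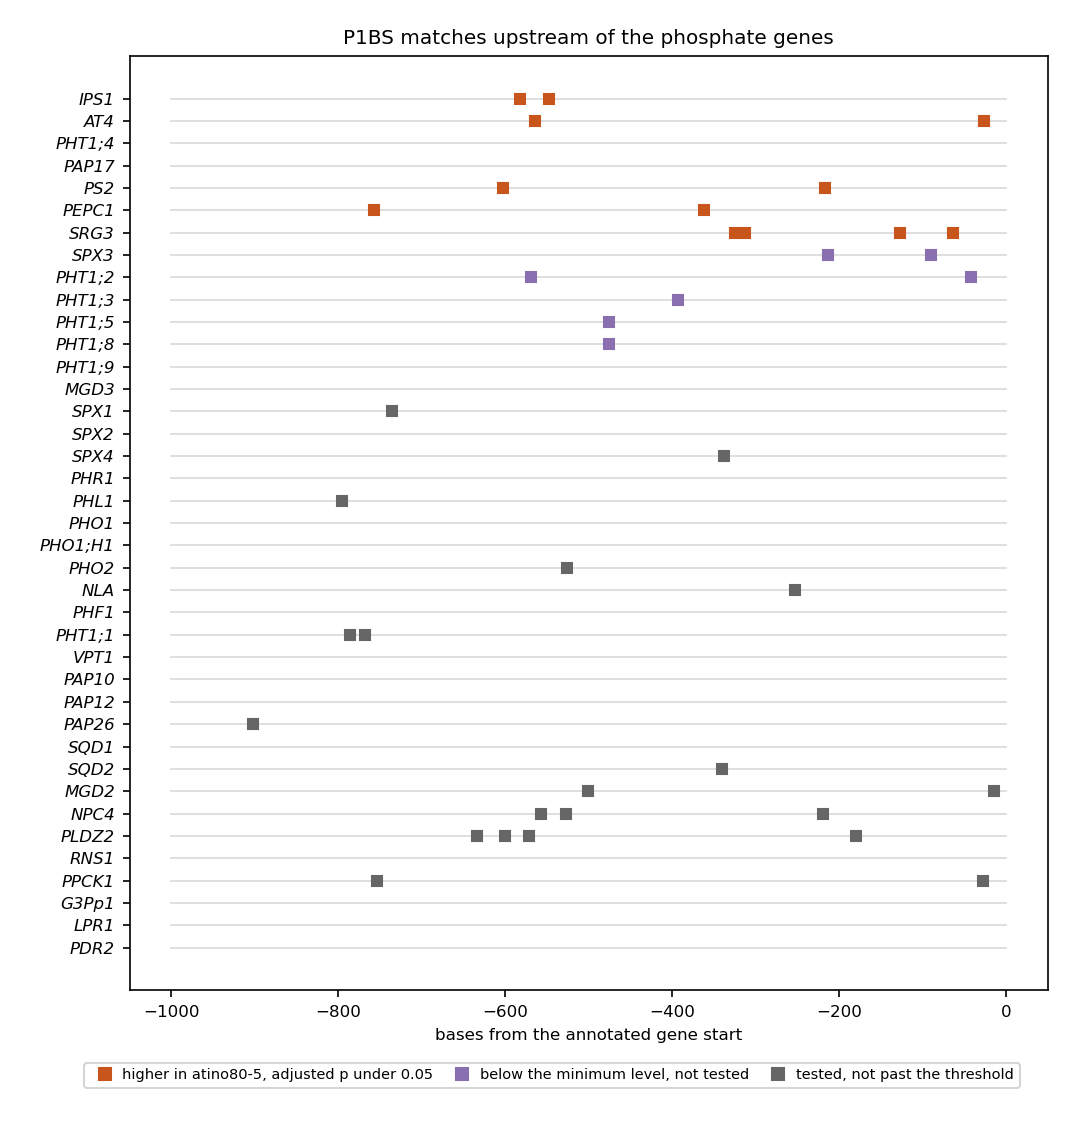
Position of every P1BS match in the 1000 bases before the annotated start of the 39 members with values, in bases from that start at 0. Each row is a gene and each square a match, coloured by the outcome of the limma test. Matches of IPS1 lie at 582 and 548 bases before the start, and PHT1;4 and PAP17 have none in the window.

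Among the phosphatase genes 3 of 6 rose, where 2.99% of all tested genes were called higher. Of these 3, PEPC1 reached the minimum for testing only through its atino80-5 values. PEPC1 (AT1G17710) encodes a phosphatase of phosphoethanolamine and phosphocholine, the head groups freed from phospholipids. It stood at 0.553 and 0.649 FPKM in wild type and at 4.11 and 3.75 FPKM in atino80-5, from 12, 19, 70 and 78 reads, and the groups were well apart. It rose 6.54-fold (log2 difference 1.62, SE 0.15, limma adjusted p = 0.00506). PS2 (AT1G73010), a related gene for a pyrophosphate-cleaving phosphatase, stood at 2.15 and 2.99 FPKM in wild type and at 6.55 and 8.16 FPKM in atino80-5. Its lower mutant library was above its higher wild-type library by more than the spread within either group. PS2 rose 2.86-fold (log2 difference 1.23, SE 0.18, limma adjusted p = 0.0193), and without wild type replicate 1 its adjusted p was 0.0669. The coding sequences of PS2 and PEPC1 were identical at 74.9% of aligned bases.

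Purple acid phosphatases release phosphate from organic compounds inside and outside the cell. PAP17 (AT3G17790), which is induced by phosphate shortage and by stress, stood at 8.10 and 9.25 FPKM in wild type and at 14.4 and 17.2 FPKM in atino80-5. It rose 1.82-fold (log2 difference 0.79, SE 0.17, limma adjusted p = 0.0485), the least secure of the 7 calls. Its adjusted p was 0.364 and 0.173 without wild type replicate 1 or replicate 2, and 0.0852 with libraries scaled to total reads. PAP12 (AT2G27190), which is secreted, stood at 14.8 and 16.3 FPKM against 21.1 and 21.0 FPKM, with the mutant libraries higher, and did not pass (log2 difference 0.42, limma adjusted p = 0.151). PAP10 (AT2G16430), active at the root surface, had 19.0 and 18.5 FPKM against 15.6 and 20.7 FPKM, and PAP26 (AT5G34850), a main acid phosphatase of the vacuole, had 55.1 and 62.1 FPKM against 68.5 and 63.3 FPKM. Neither PAP10 nor PAP26 passed, with log2 differences of -0.06 and 0.17 (limma adjusted p = 0.858 and 0.548).

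Plants short of phosphate break down membrane phospholipids and replace them with lipids that hold sugars in place of phosphate. Of the 6 tested genes of this group, SRG3 rose. SRG3, a glycerophosphodiester phosphodiesterase that acts on deacylated phospholipids, stood at 10.9 and 10.2 FPKM in wild type and at 26.2 and 33.9 FPKM in atino80-5. The groups were clearly apart, and the rise was 2.84-fold (log2 difference 1.41, SE 0.18, limma adjusted p = 0.0117). MGD3 (AT2G11810), which makes galactolipid during shortage, was under the minimum level, with 19 and 21 reads in wild type against 43 and 71 in the mutant. Its ratio of scaled reads was 3.84, with a 95% counting interval of 2.66 to 5.65. With no minimum level MGD3 rose (log2 difference 0.76, SE 0.12, limma adjusted p = 0.0404). PLDZ2 (AT3G05630), a phospholipase D induced by shortage, stood at 0.679 and 0.910 FPKM against 1.48 and 1.72 FPKM and did not pass (log2 difference 0.54, limma adjusted p = 0.105), while limma voom on the recovered reads gave it an adjusted p of 0.0479.

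The sulfolipid genes SQD1 (AT4G33030) and SQD2 (AT5G01220) did not pass, although both mutant libraries were above both wild-type libraries for each. SQD1 stood at 38.0 and 36.9 FPKM in wild type and at 41.1 and 53.9 FPKM in atino80-5. SQD2 stood at 20.2 and 19.4 FPKM in wild type and at 24.5 and 23.2 FPKM in atino80-5. MGD2 (AT5G20410), the close relative of MGD3, had 1.83 and 1.92 FPKM against 1.86 and 2.57 FPKM. NPC4 (AT3G03530), a phospholipase C, had 1.64 and 1.29 FPKM against 0.975 and 1.57 FPKM. The MGD2 and NPC4 libraries overlapped between genotypes. The log2 differences of SQD1, SQD2, MGD2 and NPC4 were 0.32, 0.26, 0.15 and -0.13, and their limma adjusted p-values lay between 0.31 and 0.683.

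**Figure D3:**
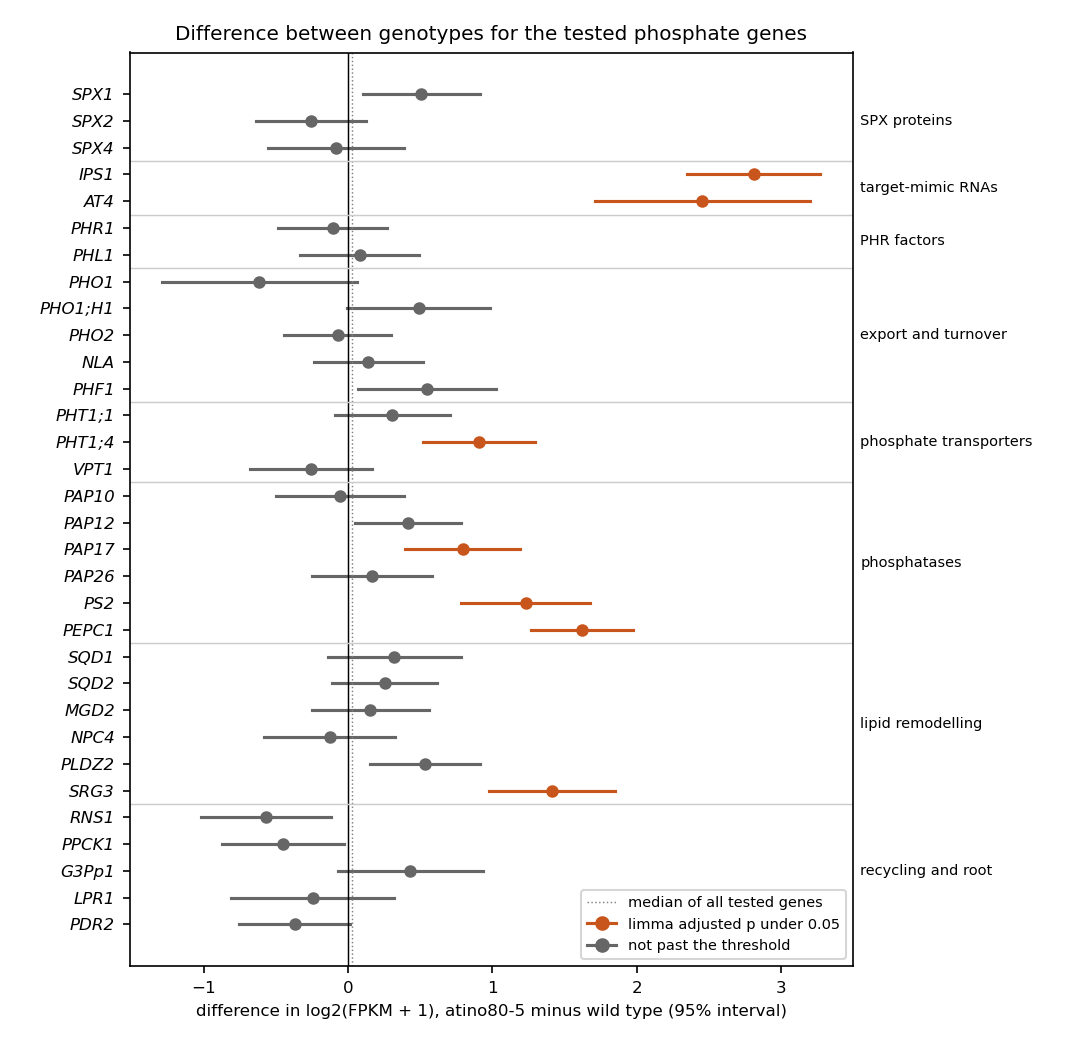
Difference in log2(FPKM + 1) between atino80-5 and wild type for the 32 tested members, with 95% intervals, grouped by role. Orange marks the 7 members with a limma adjusted p under 0.05, and the dotted line is the median of all tested genes at 0.03.

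The PHT1 proteins carry phosphate into cells, chiefly in roots. PHT1;4 (AT2G38940), one of the major uptake carriers, stood at 7.15 and 8.56 FPKM in wild type and at 14.8 and 16.3 FPKM in atino80-5. It rose 1.98-fold (log2 difference 0.91, SE 0.16, limma adjusted p = 0.0306). The call was lost without wild type replicate 1 or replicate 2 (limma adjusted p = 0.269 and 0.0889) and with scaling to total reads (0.0506). PHT1;1 (AT5G43350), the other major carrier, stood at 18.0 and 19.1 FPKM in wild type and at 21.1 and 25.4 FPKM in atino80-5, and did not pass (log2 difference 0.31, 95% interval -0.09 to 0.71, limma adjusted p = 0.274). Its tandem neighbours PHT1;2 (AT5G43370) and PHT1;3 (AT5G43360) had next to no reads, 3 and 0 respectively over the wild-type libraries and 0 and 2 over the mutant ones. The coding sequence of PHT1;1 is 97.7% identical to that of PHT1;2 and 89.7% identical to that of PHT1;3, so the split of reads among these copies is uncertain. PHT1;5, which moves phosphate between source and sink organs, had 24 reads over the wild-type libraries and 20 over the mutant ones. By the same sums PHT1;8 had 0 and 5 reads, and PHT1;9 had 14 and 26. The ratio of scaled reads for PHT1;9 was 2.50 with a 95% counting interval of 1.26 to 5.18, but with no minimum level it did not pass (limma adjusted p = 0.266).

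Transport out of the root, into the vacuole and to the plasma membrane was represented by 4 tested genes, none of which passed. PHO1 (AT3G23430), which loads phosphate into the xylem, stood at 11.99 and 10.3 FPKM in wild type and at 4.95 and 9.56 FPKM in atino80-5 (log2 difference -0.61, SE 0.28, limma adjusted p = 0.213). The mutant libraries were unlike each other, and without atino80-5 replicate 2 PHO1 was called lower (limma adjusted p = 0.00341), as were 17.2% of all genes in that setting. PHO1;H1 (AT1G68740), its closest relative, stood at 1.31 and 1.21 FPKM against 1.65 and 2.80 FPKM (log2 difference 0.49, limma adjusted p = 0.189), and was called higher without atino80-5 replicate 1 (limma adjusted p = 0.0323). PHF1 (AT3G52190), which lets PHT1 proteins leave the endoplasmic reticulum, stood at 7.49 and 8.21 FPKM against 14.3 and 9.97 FPKM. PHF1 had a log2 difference of 0.55 and a limma adjusted p of 0.149, and of 0.00607 without atino80-5 replicate 2, where 22.1% of all genes were called higher. VPT1 (AT1G63010), which stores phosphate in the vacuole, had 10.4 and 11.4 FPKM against 7.86 and 10.3 FPKM (log2 difference -0.26, limma adjusted p = 0.373), and an adjusted p of 0.0459 without atino80-5 replicate 2.

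The ubiquitin ligase gene NLA (AT1G02860), whose protein marks PHT1 carriers for breakdown, and VPT1 are both targets of the microRNA miR827. Their sites, each in the 5′ untranslated region, are given with Watson-Crick pairs in capitals, and the microRNA with its seed in capitals. The NLA site lies at chr1:635401-635421 on the plus strand and the VPT1 site at chr1:23352374-23352394 on the minus strand.
miR827: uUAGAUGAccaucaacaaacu
NLA site: uGUUUGUUGAUGGUCAUCUAA
VPT1 site: AuUacGUUGAUGGUCAUCUAA

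The NLA site formed 20 Watson-Crick pairs with miR827 and the VPT1 site 18. NLA stood at 4.79 and 4.75 FPKM in wild type and at 5.98 and 4.80 FPKM in atino80-5, and did not pass (log2 difference 0.14, 95% interval -0.24 to 0.52, limma adjusted p = 0.58). The values of miR399 and miR827 themselves were not analysed here.

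The remaining members recycle internal phosphate or shape the root under shortage, and none passed. RNS1 (AT2G02990), a ribonuclease that frees phosphate from RNA, stood at 2.93 and 2.98 FPKM in wild type and at 2.097 and 1.29 FPKM in atino80-5, with both mutant libraries lower (log2 difference -0.57, SE 0.19, limma adjusted p = 0.125). PPCK1 (AT1G08650), a kinase of phosphoenolpyruvate carboxylase, stood at 40.2 and 39.9 FPKM against 32.2 and 26.1 FPKM, the mutant again lower in both libraries (log2 difference -0.45, limma adjusted p = 0.167). Without atino80-5 replicate 1 the log2 differences of RNS1 and PPCK1 were -0.79 and -0.60. With scaling to total reads RNS1 was called lower (limma adjusted p = 0.0482). In that setting 6.5% of all genes and 3.12% of the members were called lower. G3Pp1 (AT3G47420), a glycerol-3-phosphate permease, stood at 2.60 and 3.18 FPKM against 5.25 and 3.39 FPKM (log2 difference 0.43, limma adjusted p = 0.232).

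LPR1 (AT1G23010), a ferroxidase that stops root growth where phosphate is low, had 5.43 and 5.77 FPKM in wild type and 3.42 and 5.998 FPKM in atino80-5 (log2 difference -0.24, limma adjusted p = 0.515). PDR2 (AT5G23630), an ATPase that opposes LPR1, had 8.44 and 8.33 FPKM against 5.62 and 7.01 FPKM (log2 difference -0.37, limma adjusted p = 0.199). Without atino80-5 replicate 2, G3Pp1 was called higher (limma adjusted p = 0.0158) and LPR1 and PDR2 lower (0.0185 and 0.0244). These calls rest on 1 mutant library, and the 4 members called lower there (12.5%) were a smaller share than the 17.2% of all genes.

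**Figure D4:**
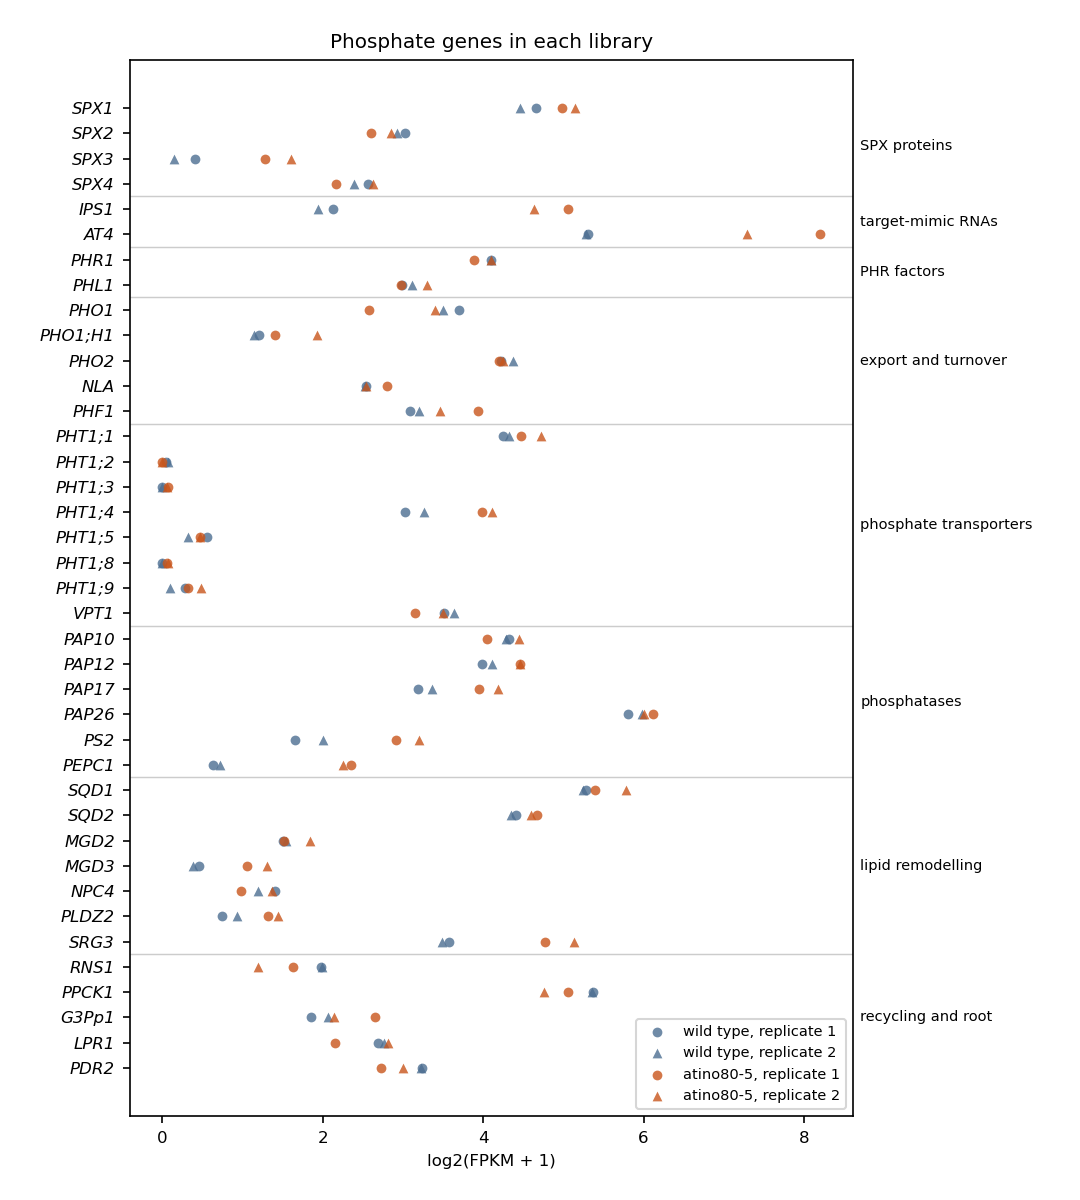
Level of the 39 members with values in each of the 4 libraries, as log2(FPKM + 1), grouped by role. Blue is wild type and orange atino80-5, circles are replicate 1 and triangles replicate 2. The orange points of IPS1 and AT4 lie farthest from the blue ones, and those of PHO1, PHF1 and LPR1 lie apart from each other.

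Counted over the tested members without a test threshold, 18 of 32 (56.2%) had both atino80-5 libraries above both wild-type libraries and 7 (21.9%) had both below. Over all tested genes these shares were 33.4% and 28.8%. At an unadjusted p under 0.05, 11 members were higher and 2 lower, where 14.8% and 12.2% of all tested genes were. The 18 and the 11 both include PEPC1 and PLDZ2, which reached the minimum for testing only through their atino80-5 values. The authors' deposited table, from DESeq2, gave 9 of the 36 members with an adjusted p a value under 0.05 as higher and none as lower, against 5.85% and 3.65% of all genes with an adjusted p there. The 9 were the 7 members that rose in limma, with SPX3 (adjusted p = 0.00204) and MGD3 (adjusted p = 0.00439). The same authors' deposited table gave PLDZ2 an adjusted p of 0.0584.

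A wider list of 54 other phosphate genes, of transcription factors, organelle transporters and lipid enzymes, had 44 tested genes, of which 2 rose (4.55%), 1 fell (2.27%) and 41 did not pass. Those shares are near the 2.99% and 2.42% of all tested genes. ZAT6 (AT5G04340), a zinc-finger factor that controls root growth and phosphate genes and also responds to stress, rose 2.25-fold from 34.8 and 35.4 to 90.3 and 67.4 FPKM (limma adjusted p = 0.03). GDPD2 (AT5G41080), of the same enzyme family as SRG3, rose 2.72-fold from 2.04 and 2.40 to 7.29 and 4.79 FPKM (limma adjusted p = 0.036). AT4G22990, a relative of the vacuolar carrier VPT1, fell 2.21-fold from 7.19 and 7.30 to 3.06 and 3.50 FPKM (limma adjusted p = 0.0197). None of these 3 was called without wild type replicate 1, and without wild type replicate 2 GDPD2 was called while ZAT6 and AT4G22990 were not (limma adjusted p = 0.0339, 0.125 and 0.0909). With no minimum level GDPD2 was not called (limma adjusted p = 0.063). The median log2 difference of the 44 genes was 0.05.

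Reads could be recovered for every value, and the libraries held 13068214 to 18406709 reads on the genes listed, the most in wild type replicate 2. INO80 (AT3G57300) still had reads in the mutant, at 4.28 and 4.54 FPKM in wild type and 2.72 and 3.13 FPKM in atino80-5 (limma adjusted p = 0.117). It overlaps AT3G57290 on the opposite strand, so some of these reads may not be its own. All 14 root and 10 shoot markers had reads in every library. No tested root or shoot marker was called by limma, while the authors' deposited table called the root marker PYK10 higher (adjusted p = 0.0196) and the shoot marker PSAD-1 lower (adjusted p = 0.0124). The summed FPKM of the root markers was 450.3 and 507.7 in wild type and 625.3 and 716.7 in atino80-5, and 127 and 136 against 125 and 115 without PYK10, the most abundant of them. The summed FPKM of the shoot markers was 53180 and 45010 in wild type and 46560 and 58590 in atino80-5, and without RBCS1A 18530 and 20060 against 25930 and 22430. Many members are expressed mainly in roots, and in whole seedlings more cells of a type and more RNA per cell cannot be told apart. The part of seedling make-up in these results was not tested.

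PAP17, SRG3, PLDZ2, PHR1, NLA, PAP10, PPCK1 and LPR1 overlap a neighbouring gene on the opposite strand, and the strand setting of the counting is not given in the sources used here, so reads of such pairs may be shared. The neighbour of PAP17 (AT3G17800) had 22.1 and 25.1 FPKM in wild type and 26.7 and 28.8 FPKM in atino80-5. The neighbour of SRG3 (AT3G02030) had 1.43 and 1.40 FPKM against 2.32 and 2.23 FPKM, well under SRG3 itself. The neighbour of PLDZ2 (AT3G05640) fell, from 9.84 and 9.84 to 4.55 and 4.86 FPKM (limma adjusted p = 0.0195), the direction opposite to the values of PLDZ2. The neighbour of LPR1 (AT1G23020) also fell, from 15.2 and 16.5 to 5.29 and 7.78 FPKM (limma adjusted p = 0.0264). With 2 libraries against 2, an exact permutation test cannot give a two-sided p under 0.333, so every call rests on limma's sharing of spread between genes. Nothing in the labels says that replicates came from separate cultures.

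**Figure D5:**
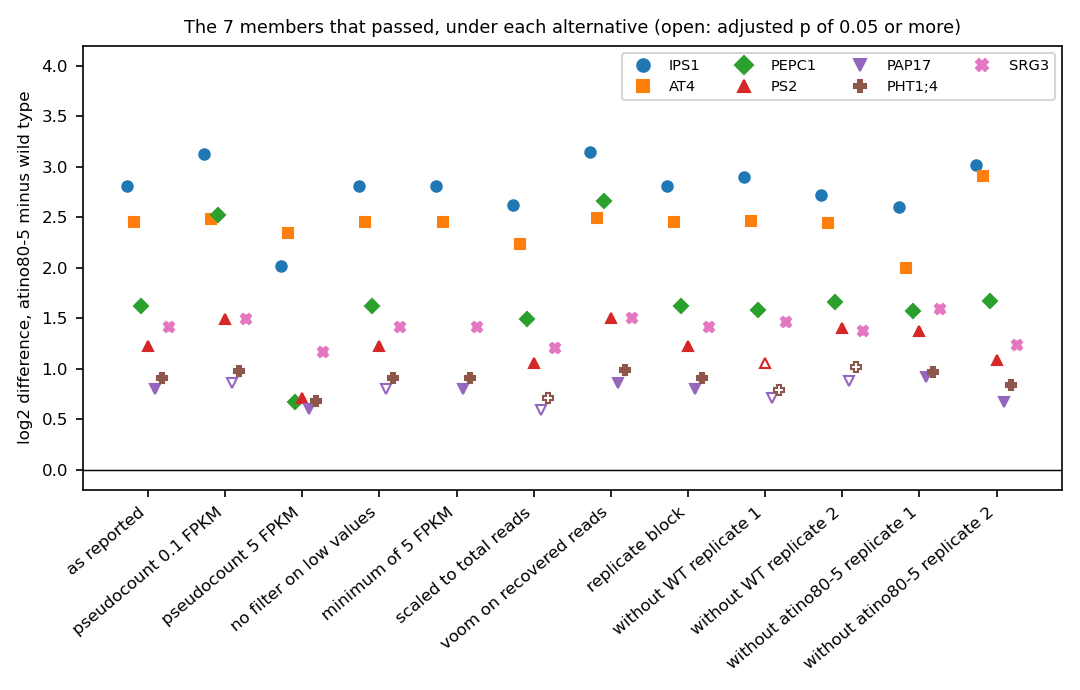
Log2 difference of the 7 members that rose, as reported and under each of 11 alternatives, with open symbols where the limma adjusted p was 0.05 or more. IPS1, AT4, PEPC1 and SRG3 were past the threshold wherever they were tested, and PAP17, PHT1;4 and PS2 were not in some.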

How the data were processed

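Per the labels' protocols, polyA RNA of whole seedlings went into strand-marked (dUTP) libraries. The submitters' processing notes name TAIR10 and, without versions, HISAT2, featureCounts, DESeq2, cutadapt, FastQC, deepTools and SAMtools. The authors deposited FPKM values per library with group means, and a DESeq2 table with the mean normalised signal, log2 fold changes, a test score, p-values and adjusted p-values. Combined, these gave whole reads for 100% of 92696 values within 0.01. The size factors so found were 0.9995 and 1.3479 in wild type and 0.7849 and 0.9574 in atino80-5. The gene lengths implied by the FPKM include introns, so levels of intron-rich genes are understated.

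Values were moved to log2(FPKM + 1), and genes averaging 1 FPKM or more were compared by genotype alone with limma 3.58.1 (R 4.3.3), its variance prior following the mean level. P-values were adjusted by Benjamini-Hochberg over all tested genes. The code was tested on simulated reads. All 42 members are accounted for: called members with full statistics, the rest by values. Members and lists were chosen with earlier results of these data known. Alternatives were pseudocounts of 0.1 and 5, no minimum or one of 5 FPKM, total-read scaling, voom on recovered reads, leaving out single libraries, and a block on the replicate number. Names, sequences and overlaps came from RefSeq TAIR10.1. MicroRNA sites were searched with at most 3 mismatches and 3 G:U pairs.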

Additional observations from a re-analysis of the deposited data

How the results depend on the processing

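No called member changed direction under any alternative, with 66 results past the threshold and 9, of PAP17, PHT1;4 and PS2, short of it. The members called higher numbered 5 to 9 and those called lower 0 to 4 with single libraries left out, and the most calls came without atino80-5 replicate 2. Over all tested genes the counts then ran from 289 to 3904 higher and from 182 to 3047 lower (1.64% to 22.1% and 1.04% to 17.2%), and in the wider list from 0 to 9 higher and from 0 to 6 lower. A lone library left in a group is assumed to vary like the other group. With either wild-type library left out, SPX3 was also tested, through its atino80-5 values, and is among the members counted. The cause of these shifts was not tested. Scaled to total reads, which moved the median of all genes to -0.16, 5 members were called higher and 1 lower (15.6% and 3.12%). Of all genes 481 were called higher and 1148 lower (2.72% and 6.5%), and 2 wider genes were called lower. With the replicate number as a block, 7 members were called higher, and 1115 genes higher (6.32%), 870 lower (4.93%) and 3 wider genes lower. Same-numbered libraries did not deviate together (correlation -0.03), which cannot tell whether they were grown or prepared together. A minimum of 5 FPKM gave 362 of 10893 genes higher (3.32%) and 210 lower (1.93%), and 1 of 28 wider genes higher. No minimum gave 1 of 54 wider genes higher and 2 lower, where 1.92% and 1.95% of all genes were. A pseudocount of 5 gave 2 of 44 wider genes lower, where 2.44% of all genes were. Reversals were limited to members that were not called. With total reads the log2 difference was -0.11 for PHL1, -0.043 for NLA and -0.049 for PAP26. With single libraries left out, it ran from -0.31 to 0.14 for SPX4, -0.082 to 0.25 for PHL1, -0.14 to 0.003 for PHO2, -0.25 to 0.14 for PAP10, -0.006 to 0.32 for MGD2, -0.32 to 0.065 for NPC4 and -0.58 to 0.086 for LPR1. Depth limits the 7 members below the minimum, with at most 114 reads in a genotype.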

Other observations

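Of the wider list, 10 genes were below the minimum level and were not tested, and 2 of them are given here as values. PHT3;2 (AT3G48850), a mitochondrial phosphate carrier gene, stood at 0.681 and 0.884 FPKM in wild type and at 0.0867 and 0.213 FPKM in atino80-5. PAP25 (AT4G36350), an acid phosphatase gene induced by phosphate shortage, stood at 0.0317 and 0.0235 FPKM in wild type and at 0.121 and 0.298 FPKM in atino80-5, from 1 and 1 reads against 3 and 9. The PAP25 values are at the level of single reads. PHT3;2 rested on 20 and 35 reads against 2 and 6, and the authors' deposited table gave PHT3;2 an adjusted p of 0.0735. These genes were singled out after their values were seen.

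Of the 32 tested members, 21 were higher in atino80-5 replicate 2 and 11 in replicate 1, and in wild type the split was 17 and 15. Of the 7 members that rose, IPS1, AT4 and PEPC1 were higher in replicate 1 and the other 4 in replicate 2. In wild type the split of these 7 was also 3 and 4. Summed over the target mimics, the level was 325.8 and 179.3 FPKM in the atino80-5 libraries, against 41.7 and 40.8 FPKM in wild type. The phosphatase genes summed to 130.2 and 134.2 FPKM in atino80-5, against 99.7 and 109.8 FPKM in wild type.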
